A study of Homo sapiens with 4 samples.

Results

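Broad domains of H3K27ac over gene starts are described here: regions at least 8000 bases wide that covered the start of exactly 1 gene. They were selected on a measured value, the width of the region in the authors' deposited table, together with a listed distance of 0 bases to 1 gene only. The rule found 544 regions for 544 genes among 91107 distinct regions, which is 5.87% of the 9266 regions that covered 1 start. They held 4.22% of all bases in regions and 6.12% of the summed mean level. Width, and the level of a region that grows with its width, are therefore given as a description and support nothing else.

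Acetylation of histone H3 at lysine 27 (H3K27ac) is laid down by the acetyltransferases p300 and CBP and marks active promoters and enhancers. At most active promoters it flanks the start as a narrow block. Domains that run for many kilobases over and beyond the start are known in many cell types at highly transcribed genes and at genes that define the cell's identity.

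The libraries came from A375, an established human melanoma line, and were made by chromatin immunoprecipitation with an antibody to H3K27ac and sequencing. Per the labels, 2 libraries are of cells kept in the vehicle isopropanol and 2 of cells kept in 1 mM octanoate, a fatty acid of medium chain length, each for 48 hours. All 4 come from this 1 line, and the labels do not say whether the libraries of a group are separate cultures, so the p-values may measure technical spread only. The authors' deposited table gives each region a mean level over libraries, a log2 fold change, its standard error (SE) and p-values, but no value per library, so the spread between replicates and the depth of each library are unknown and every error below is the authors' SE.

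The header does not name which treatment is the numerator of the fold change, so values are called positive or negative and are not assigned to octanoate or vehicle. Adjusted p-values are those of the authors' deposited table, adjusted over the 36436 regions it tested, and a region is called where that value is under 0.05. The median log2 fold change of those 36436 regions was 0.32, a ratio of 1.25, and each value below is best read against it. Coordinates are those of the deposited table on hg38.

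To show the sequence at the starts that the results turn on, the 250 bases before the start are printed for 4 called genes (ANGPTL4, ID1, ID3 and IL24), for the gene with the widest region (ANXA2) and for the gene with the most negative fold change (TNS3). They are from RefSeq on GRCh38.p14, the assembly that hg38 denotes, 5′ to 3′ on the gene's strand: ANGPTL4 at chr19:8363905-8364154 on the plus strand, ID1 at chr20:31605039-31605288 on the plus strand, ID3 at chr1:23559502-23559751 on the minus strand, IL24 at chr1:206897193-206897442 on the plus strand, ANXA2 at chr15:60397987-60398236 on the minus strand, TNS3 at chr7:47582112-47582361 on the minus strand. Capitals mark matches, on either strand, to TGANTCA (the AP-1 site), CACGTG and CATGTG (E-boxes), GGGCGG (the GC box), TATAAA (the TATA box) and CCAAT. Neighbouring matches run together, and the repeated GC boxes of ANXA2 and the TATA boxes on both strands of ID1 overlap.
ANGPTL4: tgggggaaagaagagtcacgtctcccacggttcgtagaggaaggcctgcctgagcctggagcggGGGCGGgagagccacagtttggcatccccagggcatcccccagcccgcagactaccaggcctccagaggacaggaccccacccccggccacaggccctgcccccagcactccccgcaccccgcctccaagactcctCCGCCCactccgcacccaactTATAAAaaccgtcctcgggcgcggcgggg
ID1: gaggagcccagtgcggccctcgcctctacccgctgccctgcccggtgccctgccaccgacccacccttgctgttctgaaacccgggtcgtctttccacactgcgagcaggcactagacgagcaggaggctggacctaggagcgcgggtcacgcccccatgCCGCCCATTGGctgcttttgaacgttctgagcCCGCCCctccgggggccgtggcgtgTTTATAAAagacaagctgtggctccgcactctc
ID3: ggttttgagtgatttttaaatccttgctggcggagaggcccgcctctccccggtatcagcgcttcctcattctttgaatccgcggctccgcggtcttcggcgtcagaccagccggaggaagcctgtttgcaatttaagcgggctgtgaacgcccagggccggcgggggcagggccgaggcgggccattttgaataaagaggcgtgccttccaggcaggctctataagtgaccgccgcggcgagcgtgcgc
IL24: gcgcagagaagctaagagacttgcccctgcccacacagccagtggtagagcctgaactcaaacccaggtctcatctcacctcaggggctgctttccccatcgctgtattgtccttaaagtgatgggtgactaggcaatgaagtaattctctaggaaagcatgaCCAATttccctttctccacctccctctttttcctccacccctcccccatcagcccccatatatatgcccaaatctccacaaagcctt
ANXA2: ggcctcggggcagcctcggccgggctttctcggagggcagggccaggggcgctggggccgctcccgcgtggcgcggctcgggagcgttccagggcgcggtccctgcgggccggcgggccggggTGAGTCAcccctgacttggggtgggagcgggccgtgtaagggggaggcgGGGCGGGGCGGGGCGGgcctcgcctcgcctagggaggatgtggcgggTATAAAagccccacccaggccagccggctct
TNS3: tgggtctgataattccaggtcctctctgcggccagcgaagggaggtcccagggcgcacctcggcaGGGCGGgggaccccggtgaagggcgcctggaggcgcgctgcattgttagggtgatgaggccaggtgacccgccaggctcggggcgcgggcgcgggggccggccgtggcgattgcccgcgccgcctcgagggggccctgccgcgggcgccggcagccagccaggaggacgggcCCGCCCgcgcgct
The ANXA2 stretch alone among these 6 held an AP-1 match, and it also held 3 GC boxes and a TATA box. ID1 held 2 GC boxes, 1 CCAAT box and TATA boxes. ANGPTL4 held 2 GC boxes and 1 TATA box, TNS3 held 2 GC boxes, IL24 held 1 CCAAT box, and ID3 held none of these letters. A match is a run of letters and says nothing of binding, and the lack of one says only that these letters are not in this window.

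The label was checked against the reference. Of 441 broad domains whose gene had a start in the RefSeq table, 434 (98.4%) held that start. Of all 544, 28 (5.15%) also held the start of another protein-coding gene in that table, although the deposited table lists 1 gene at distance 0, and 166 (30.5%) held the start of a noncoding gene. The cell line was checked too: 8 of 13 melanocytic or neural crest markers had a region over their start, with levels of 55.2 to 774, and SOX10, a transcription factor of that lineage, had a broad domain 18797 bases wide. MLANA, TYR, TYRP1, DCT and KIT had none in the table used here. Of 10 markers each, 4 keratinocyte, 7 fibroblast, 2 lymphoid or myeloid and 3 endothelial markers had a region over their start. The median levels of these regions were 104, 36.2, 44.2 and 13.9 in the same order, beside 184 for the melanocytic or neural crest markers. Among the endothelial markers, ROBO4, a guidance receptor of vessels, had a broad domain with a level of 308. The part of other cell types in the results was not tested.

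The broad domains had a median width of 10164.5 bases (quartiles 8909.75 and 12682) and reached 45764 bases. The widest covered the start of ANXA2, a calcium-dependent membrane-binding annexin, at chromosome 15, 60359119 to 60404883, and it also had the highest mean level, 1328. Next came ST3GAL4, a sialyltransferase, with 36137 bases and CDC42EP3, an effector of the small GTPase CDC42, with 35189 bases. The other 7 of the 10 widest lay over BIN3, CUEDC1, SPARC (a secreted matrix glycoprotein), CRIM1 (a transmembrane protein that binds bone morphogenetic proteins), PYGB (a glycogen phosphorylase), FAM129B and SLC2A1 (the glucose transporter GLUT1), and measured 33544 to 28602 bases.

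Level divided by width compares regions per length. In the authors' deposited table this density had a median of 28.2 per kb in the broad domains (quartiles 23.5 and 33.5), beside 26.1 in regions of 2000 to 8000 bases over 1 start and 19.7 in those under 2000 bases. The densest was ZMYND8, which encodes a chromatin reader, with 72.0 per kb over 15296 bases. S100A2 followed with 59.8 per kb, and S100A16, of the same family of calcium-binding proteins, with 54.8. The 10 densest included 4 on chromosome 20 (ZMYND8, TFAP2C, ZNFX1 and SNAI1) and 4 on chromosome 1 (S100A2, S100A16, ZBTB37 and MEF2D). Of the 544 broad domains, 26 lay on chromosome 20 and 81 on chromosome 1, with median densities of 32.6 and 30.9 per kb. Narrower regions over 1 start were dense there too, at 30.4 and 28.9 per kb, beside 24.8 over all chromosomes. Chromosome 20 also had the highest share of broad domains, 26 of its 260 regions over 1 start (10.0%), while chromosome 19 had 19 of 659 (2.88%) and chromosome 21 had 2.25%. The number of DNA copies per chromosome was not measured here, and its part in these levels was not tested.

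The 10 highest levels, which follow width closely (Spearman correlation of width and level 0.73 across 542 domains that share the same libraries), were those of ANXA2, ST3GAL4, PYGB, ZMYND8, CUEDC1, ITGA3, PHLDA3, FAM129B, MYOF and ACTN4. They ran from 1328 down to 947. ITGA3 encodes an integrin subunit, MYOF the membrane repair protein myoferlin and ACTN4 an actin-crosslinking actinin. None of the 10 was called, and the authors' deposited table gave them log2 fold changes of 0.08 (ANXA2) to 0.56 ± 0.21 (SE, ITGA3).

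The authors' deposited table gave 542 of the 544 broad domains an adjusted p-value. The other 2 were NBPF14, with a level of 14.6, and HIST2H4B, with a level of 4.38. Both belong to loci with near-identical copies, where reads may be split among copies, and the part of this was not tested. Of the 542, 535 (98.7%) had a positive fold change and 7 a negative one. In all tested regions the share positive was 87.3%, and in regions of 2000 to 8000 bases over 1 start it was 98.2%. The median fold change of the broad domains was 0.31 (quartiles 0.21 and 0.42), a ratio of 1.24, and 302 of the 542 lay below the median of all tested regions. So the sign of most broad domains was that of the common shift, and 437 (80.6%) lay within 1 SE of it. That share was 71.7% in all tested regions. Over 1 start it was 84.99% in regions of 2000 to 8000 bases and 71.8% in those under 2000 bases. In regions of 8000 bases or more it was 85.96% over 2 or more starts and 65.7% over no start. The SD of the fold change in the broad domains was 0.17, beside a median SE of 0.21.

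**Figure D1:**
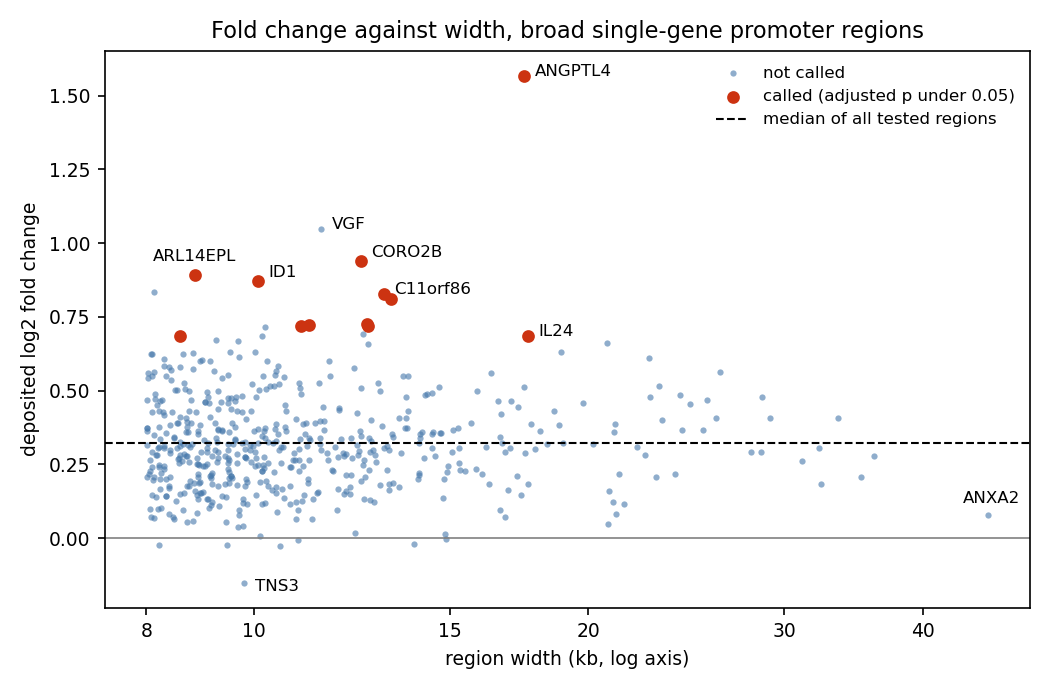
Each point is a broad domain, plotted by width in kb on a log axis and by the log2 fold change that the authors' deposited table gives. The 12 called domains are red, the dashed line is the median of all tested regions (0.32), and ANGPTL4 stands at 1.57 while ANXA2, the widest, stands at 0.08.

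By the authors' deposited table, 12 of the 542 broad domains were called, all positive. That is 2.21% of them, where 1.65% of all tested regions were called positive. At an unadjusted p-value under 0.05 it was 138 (25.5%), where the share of all tested regions was 17.9%, and none of the broad domains was negative at that threshold. The median SE was 0.21 in the broad domains and 0.29 in all tested regions, so a smaller fold change could be called in the former. After the common median was subtracted, 1 of the 542 was called, where the share of all tested regions was 0.124%. With adjustment over all 91107 distinct regions, 7 of the 544 broad domains were called, beside 250 of the 91107 (0.274%). Of the 91107 only 36436 had been tested by the authors, against 542 of the 544. So these shares are not on a like footing.

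The largest fold change was that of ANGPTL4, which encodes a secreted inhibitor of lipoprotein lipase and is a known target of the fatty acid receptors PPAR. Its domain, at chromosome 19, 8353745 to 8371252, was 17507 bases wide with a level of 338. The authors' deposited table gave it a log2 fold change of 1.57 ± 0.20 (SE), a ratio of 2.96, with a DESeq2 adjusted p of 3.96e-10. It was the 1 domain still called after the common median was subtracted, at 1.24 (Benjamini-Hochberg adjusted p of 1.6e-05), and the next, CORO2B, then had an adjusted p of 0.472.

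ID1 and ID3 encode helix-loop-helix proteins that lack a DNA-binding region and hold back partner transcription factors, and both are known targets of bone morphogenetic protein signalling. The ID1 domain (chromosome 20, 31601874 to 31611957) had a fold change of 0.87 ± 0.22 (SE, DESeq2 adjusted p 0.0155) in the authors' deposited table. The ID3 domain (chromosome 1, 23553940 to 23565141) had 0.72 ± 0.21 (SE, DESeq2 adjusted p 0.0409), and it was not called with adjustment over all distinct regions (adjusted p 0.100). Of the third gene of the family with a region over its start, ID2, that region was 1633 bases wide and had 0.79 ± 0.32 (SE, DESeq2 adjusted p 0.175). A region of 3500 bases, 19625 bases from the ID3 domain and assigned to ID3, was called as well, at 0.99 ± 0.28 (SE, DESeq2 adjusted p 0.0324).

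The other called domains lay over genes of varied function, and after the common median was subtracted their fold changes were 0.36 to 0.62 with none called. CORO2B, of the actin-binding coronins, had 0.94 ± 0.23 (SE, DESeq2 adjusted p 0.0104) in the authors' deposited table, and ARL14EPL had 0.89 ± 0.22 (adjusted p 0.0111) at the lowest level of the 12, 107. C11orf86 had 0.83 ± 0.21 (DESeq2 adjusted p 0.0131), and NUMB, an adaptor that restrains Notch signalling, had 0.81 ± 0.21 (adjusted p 0.0190). PRELID3B, of a family of mitochondrial lipid transfer proteins, had 0.73 ± 0.18 (DESeq2 adjusted p 0.0137).

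The last 4, like ID3, were not called with adjustment over all distinct regions. PTPRF, a receptor tyrosine phosphatase, had a fold change of 0.72 ± 0.20 (SE, DESeq2 adjusted p 0.0322) in the authors' deposited table and an adjusted p of 0.0793 over all regions. CTTNBP2NL had 0.72 ± 0.19 (DESeq2 adjusted p 0.0262, and 0.0649 over all regions). IL24, a cytokine first known as a melanoma differentiation gene, had 0.69 ± 0.20 over a domain of 17641 bases (DESeq2 adjusted p 0.0449, and 0.110 over all regions). GDA, guanine deaminase, had 0.68 ± 0.20 (DESeq2 adjusted p 0.0496, and 0.121 over all regions).

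**Figure D2:**
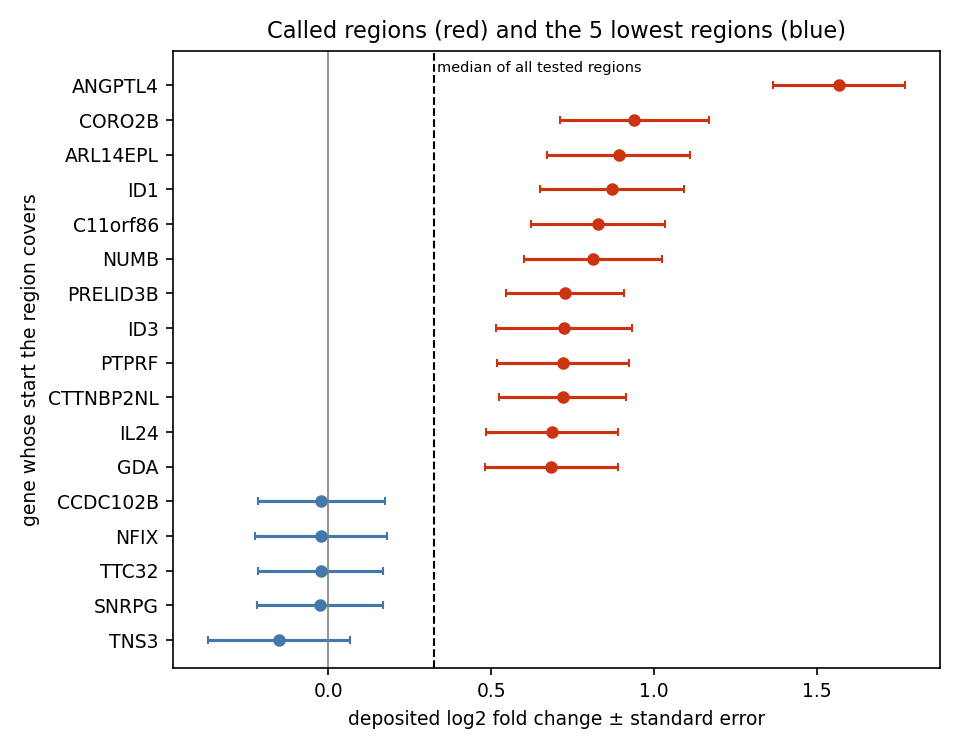
Log2 fold change of the authors' deposited table with its SE as the bar, for the 12 called broad domains (red) and the 5 with the lowest fold change (blue). ANGPTL4 lies at 1.57, the other called domains between 0.68 and 0.94, and the lowest 5 between -0.15 and -0.02.

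At the other end, 7 broad domains had a negative fold change in the authors' deposited table and none was called. TNS3, a tensin of focal adhesions, was lowest at -0.15 ± 0.22 (SE, DESeq2 adjusted p 0.670), over chromosome 7, 47572683 to 47582484. SNRPG, a core protein of spliceosomal particles, had -0.03, and TTC32, NFIX (a transcription factor) and CCDC102B each had -0.02. All 5 had an SE of 0.19 to 0.22, so their values lay within 1 SE of 0. After the common median was subtracted, TNS3 had -0.474 (Benjamini-Hochberg adjusted p 0.749). The others then had -0.345 to -0.349, and none was called.

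Some large fold changes fell short of the threshold. VGF, a secreted neuropeptide precursor, had 1.05 ± 0.32 (SE, DESeq2 adjusted p 0.0515) in the authors' deposited table, larger than any called domain but ANGPTL4. FLRT2, a membrane protein of cell adhesion, had 0.83 ± 0.26 (DESeq2 adjusted p 0.0601), and E2F1, a transcription factor of cell cycle entry, had 0.71 ± 0.23 (adjusted p 0.0675). MOCOS, the molybdenum cofactor sulfurase, had 0.66 ± 0.20 (DESeq2 adjusted p 0.0503).

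Within the broad domains the fold change showed little relation to width. The Spearman correlation of width and fold change was 0.03 across the 542, that of level and fold change 0.01 and that of density and fold change -0.02, all over regions of the same libraries and with no test. The median fold change was 0.30 for domains of 8000 to 10000 bases, 0.31 for those up to 12000, 0.30 up to 16000, 0.32 up to 24000 and 0.37 for the 18 that were wider. Calls in these bands numbered 2 of 254 tested (0.787%), 3 of 121 (2.48%), 5 of 100 (5.0%), 2 of 49 (4.08%) and 0 of 18, beside 1.65% of all tested regions, and the median SE was 0.20 to 0.21 in each. The share called thus differed between bands while the median stayed between 0.30 and 0.37, and with so few calls the difference was not tested. The median density was 27.4 per kb in the narrowest band and 33.3 in the widest.

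At the width threshold, STK24 (8004 bases), NBPF14 (8008), MAT2A and CITED2 (8009 each) and CPEB4 (8010) were just inside. SYNCRIP (7999), PTTG1IP (7996), ACTG1 (7992), PRDX1 (7988) and SIN3A (7985) were just outside, with fold changes of 0.08 to 0.43 in the authors' deposited table. None of these 10 was called, and NBPF14 had not been tested.

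Set beside other regions over 1 start, the median fold change was 0.49 in 1565 tested regions under 2000 bases, 0.34 in 6524 of 2000 to 8000 bases and 0.31 in the broad domains. The median SE was 0.34, 0.25 and 0.21 in the same order. In these classes the authors' deposited table called 16 (1.02%), 55 (0.843%) and 12 (2.21%), and the smallest called fold change was 1.07, 0.73 and 0.68. Regions just as wide that covered no start had a median of 0.32, a median SE of 0.21 and 66 calls among 1070 (6.17%), and those over 2 or more starts a median of 0.28 and 1 call among 171 (0.585%). The share positive was 98.7% in the broad domains, 98.2% in regions of 2000 to 8000 bases over 1 start and 97.1% in those under 2000 bases. In equally wide regions it was 97.1% over 2 or more starts and 91.5% over no start. The SD of the fold change in the same order was 0.17, 0.19, 0.28, 0.14 and 0.25. These classes were not compared by a test, since regions are not replicates and the precision differs between widths.

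**Figure D3:**
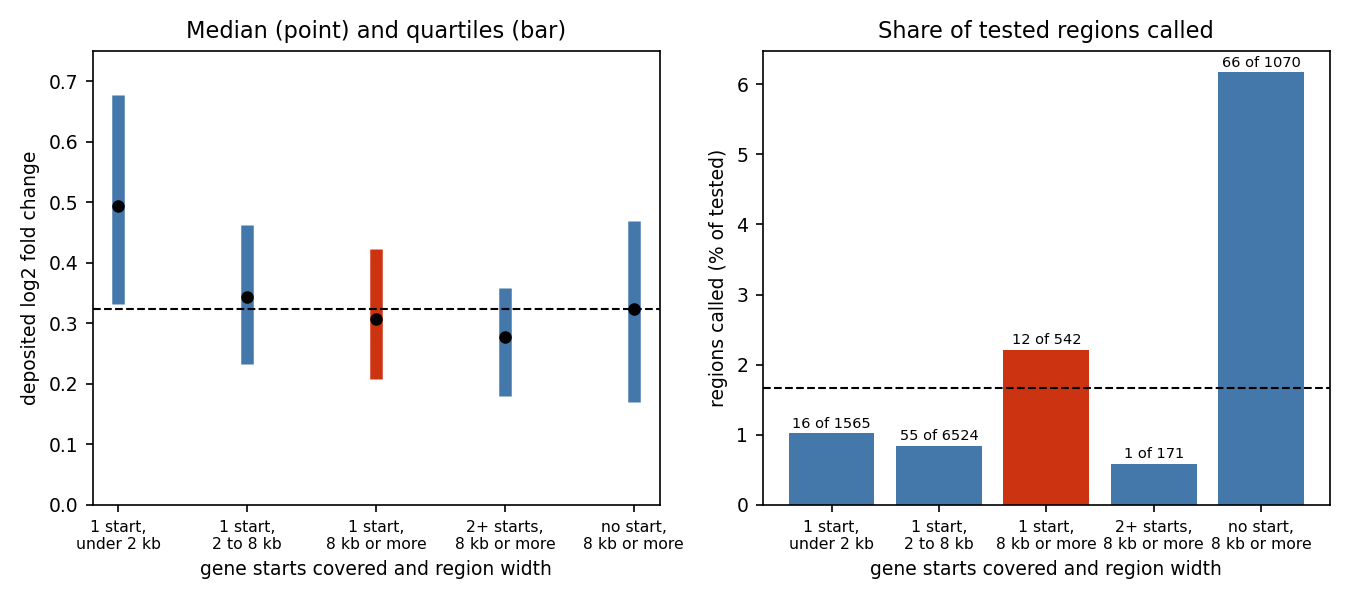
Left, the median (point) and quartiles (bar) of the log2 fold changes from the authors' deposited table, for 5 classes of tested regions by starts covered and width. Right, the share of each class called, as a percent of tested regions. The broad domains (red) have a median of 0.31 and 2.21% called, and equally wide regions over no start have 6.17% called. Dashed lines show all tested regions.

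Gene lists for melanoma and fatty acid biology held 291 genes, of which 256 had a region over their start and 54 had a broad domain. Of the 54, 1 was called in the authors' deposited table, ANGPTL4. The share called was 2.21% of all tested broad domains and, for positive calls, 1.65% of all tested regions. The lists held 1 to 11 broad domains each, so the lack of a call in a list was not read as a result about its genes. In the list of fatty acid oxidation and PPAR targets 2 of 24 such genes had a broad domain. Besides ANGPTL4 this was PLIN2, a coat protein of lipid droplets, whose domain of 22693 bases had a fold change of 0.61 ± 0.19 (SE, DESeq2 adjusted p 0.0675). In the sterol and fatty acid synthesis list it was 3 of 23, among them SREBF1, a transcription factor of lipid synthesis, at 0.29 ± 0.21 and FDFT1, squalene synthase, at 0.22 ± 0.23. Of the writers, erasers and readers of histone acetylation 1 of 28 had a broad domain, the reader BRD2, at 0.27 ± 0.21.

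Genes downstream of MAPK signalling, the pathway driven by mutant BRAF in this line, had 11 broad domains among 24 genes. None was called, and the authors' deposited table gave them a median fold change of 0.35, with 7 above the common median. The widest were the ETS factor ETV4 (24675 bases, 0.45 ± 0.21) and PHLDA1 (24297 bases, 0.37 ± 0.18). The highest of the 11 was MYEOV at 0.57 ± 0.23. The feedback genes SPRY4, DUSP4, SPRY2 and DUSP6, which restrain the pathway, had 0.30, 0.36, 0.35 and 0.15. The further feedback genes DUSP5 and SPRED1 had 0.47 and 0.29. After the common median was subtracted SPRY4, DUSP6 and SPRED1 were negative.

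AP-1 and immediate early genes, which respond fast to growth signals, had 6 broad domains among 28 genes and a median fold change of 0.42. All 6 lay above the common median of 0.32, and none was called in the authors' deposited table. MCL1, which holds off apoptosis, was highest at 0.63 ± 0.19 (SE, DESeq2 adjusted p 0.0570), followed by the AP-1 subunit FOSL2 at 0.54 ± 0.22 and IER5 at 0.47 ± 0.20. The lineage factors with a broad domain were SOX10 and TFAP2C, 2 of 18, at 0.38 ± 0.21 and 0.39 ± 0.20.

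The list of YAP, TGF-beta, matrix and adhesion genes had 8 broad domains among 25 genes, a median fold change of 0.32 and no call in the authors' deposited table. ITGA5, the fibronectin receptor subunit, had 0.52 ± 0.23 and the receptor kinase AXL 0.50 ± 0.22, while THBS1 and VIM had 0.18 and 0.16. Stress response genes had 6 of 30, led by the chaperone HSPA5 at 0.50 ± 0.20, and cell cycle and cancer genes 7 of 30, from 0.71 for E2F1 to 0.20 for TBX3. Abundant housekeeping genes had 9 of 28, with a median of 0.27, from 0.05 ± 0.20 for the ribosomal gene RPL3 to 0.60 ± 0.21 for YWHAZ, with GAPDH at 0.16. None of these was called.

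**Figure D4:**
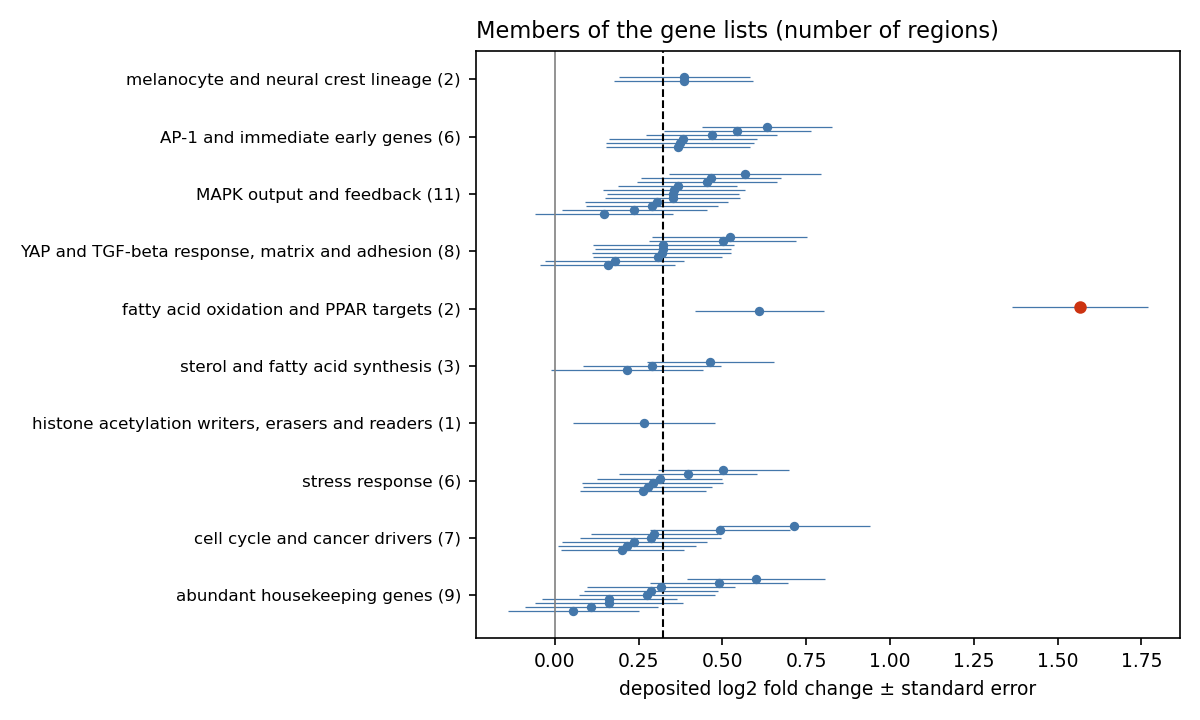
Log2 fold change with SE of the authors' deposited table for each broad domain in 10 gene lists, with the number of domains in parentheses. The dashed line is the median of all tested regions. ANGPTL4 (red, called) stands at 1.57, and the 6 domains of AP-1 and immediate early genes all lie to the right of the dashed line.

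Some gene families, picked after their values were seen, held many broad domains. Of 12142 genes with a region over their start 4.48% had a broad domain. Of the heterogeneous nuclear ribonucleoproteins, which package and splice nuclear RNA, 6 of 19 (31.6%) had one. The authors' deposited table gave them fold changes of 0.02 to 0.23, all 6 positive but below the common median, so that they are negative once it is subtracted. Cytosolic ribosomal proteins had 13 of 80, with a median of 0.20, positive as deposited, and 12 of the 13 below the common median. The RNA-binding proteins IGF2BP1, IGF2BP2 and IGF2BP3 all had one, at 0.25, 0.30 and 0.18, again below it.

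Integrins had 3 broad domains among 16 genes (ITGA3, ITGB5 and ITGA5), at 0.56, 0.42 and 0.52 in the authors' deposited table, all above the common median. The S100 proteins had 3 of 11 (S100A10, S100A16 and S100A2, at 0.32, 0.53 and 0.36) and the annexins 3 of 9 (ANXA2, ANXA1 and ANXA5, at 0.08, 0.21 and 0.35). HOX genes, which set position along the body axis, had 4 of 25, at 0.11 to 0.25. At the low end, zinc finger genes named ZNF had 8 of 419 (1.91%). Members of 1 family can share sequence, so reads at close copies are less certain, and none of these families was called but for the ID genes.

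Broad domains lay mostly on the gene's own side of its start. Where a region held several reference starts of its gene, the most upstream was used, in the broad and the narrower class alike. This choice raises the downstream share of such regions, and its part in the values was not tested. Over the 434 with a reference start, the median reach was 2750.5 bases upstream and 7292.5 bases downstream, so that a median of 72.5% of the domain lay downstream (quartiles 54.7% and 87.3%). In regions of 2000 to 8000 bases that share was 69.3%. More of the domain lay upstream in 83 of the 434 (19.1%), and more of the region in 13.0% of those of 2000 to 8000 bases. Of the 10 called domains with a reference start, 7 had more upstream, with a median of 37.8% downstream. The ANGPTL4 domain reached 10410 bases upstream and 7097 downstream, and that of IL24 reached 13114 upstream and 4527 downstream. CORO2B was an exception with 92.3% downstream. The 10 are few and were chosen by their p-values, and the difference was not tested.

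**Figure D5:**
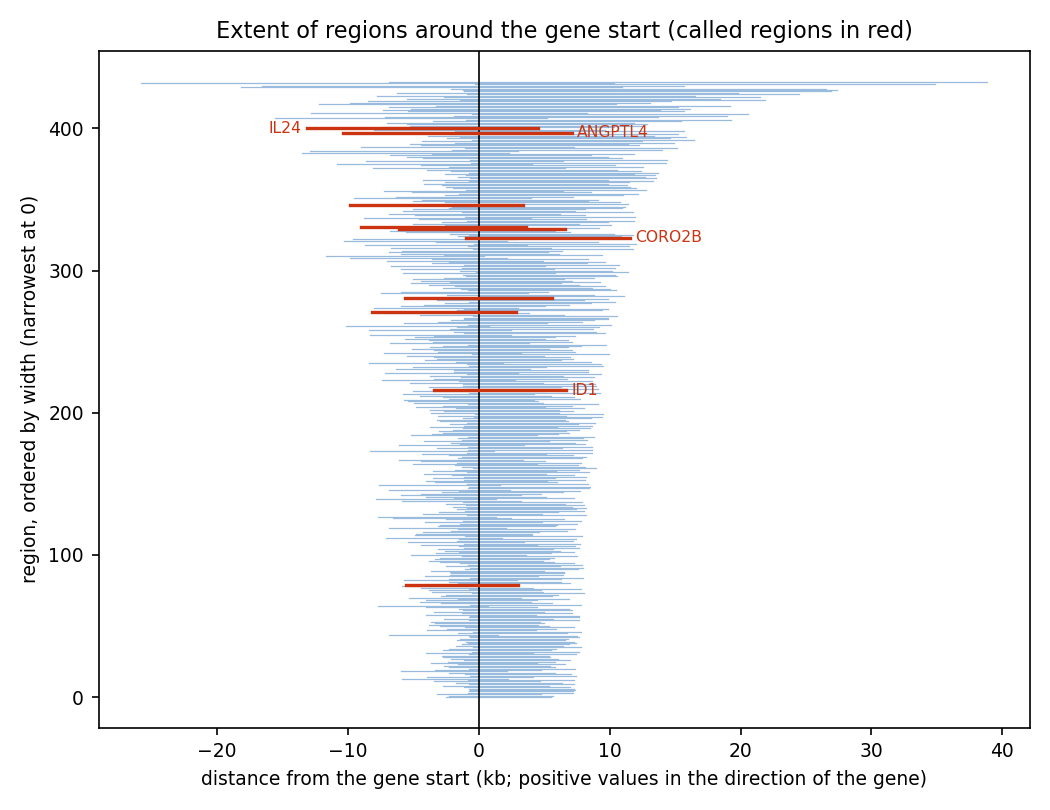
Each line is 1 of the 434 broad domains with a reference start, ordered by width. It runs from its upstream to its downstream end, in kb from the most upstream reference start inside. Called domains are red. Most lines extend further to the right, downstream, while 7 of the 10 red lines extend further to the left.

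In 63 of 539 genes with a reference length (11.7%) the whole gene lay inside its broad domain, as did ID1, ID3 and C11orf86. In regions of 2000 to 8000 bases this was 2.28%. A higher share in wider regions is favoured by the width rule itself, so the difference is a description only. The genes themselves were of like length, with a median of 33516 bases for broad domains and 34750 for the narrower class.

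Sequence at the starts, which the rule did not use, was rich in CpG. Over 434 windows of 300 bases, from 250 before the start to 50 after it, the median GC content was 66.3% and the median ratio of observed to expected CpG was 0.83. That ratio was above 0.6 in 81.6% of them. It was above 0.6 in 48.8% of all 35114 reference windows, in 62.1% of those of protein-coding genes and in 87.9% of those of regions of 2000 to 8000 bases. GGGCGG was found in 71.0% of the broad domains' windows, 45.0% of all windows, 56.3% of those of protein-coding genes and 74.0% of those of regions of 2000 to 8000 bases. CCAAT was found in 39.2%, 34.6%, 34.7% and 36.6% in the same order.

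The AP-1 letters TGANTCA were found in 6.22% of the broad domains' windows, 7.71% of all windows and 3.88% of those of the narrower class. TATAAA was found in 9.22%, 11.5% and 5.02% in the same order. CACGTG was found in 11.1% of the broad domains' windows, 7.26% of all and 10.7% of those of the narrower class, and CATGTG in 8.29%, 11.1% and 6.10%. In windows of protein-coding genes TGANTCA was found in 6.15%, TATAAA in 9.47%, CACGTG in 8.34% and CATGTG in 8.93%. The repeat of AGGTCA after 1 base, the element that PPAR and its partner RXR read, was in 0 of the 434 windows and in 0.0228% of all windows. The narrow window holds a small part of each domain, and the rest of the sequence was not analysed here.

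Fold changes of regions near a broad domain were set beside its own. For 262 broad domains whose gene had at least 3 other tested regions in the authors' deposited table, the Spearman correlation of their fold change with the median of those others was 0.38. For 465 with 3 or more tested regions within 100 kb it was 0.32. These pairs share libraries and scaling, and no test was made. Another called region lay within 100 kb of 4 of the 12 called domains and of 46 of the other 530 (8.68%). These were the ID3 neighbour above, a region assigned to PIGR 23170 bases from the IL24 domain (0.89 ± 0.25), a region assigned to PRELID3B 12977 bases from its domain (0.98 ± 0.27) and a region of 16742 bases assigned to LVRN 87811 bases from the ARL14EPL domain (1.08 ± 0.20). None lay within 100 kb of ANGPTL4.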

How the data were processed

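H3K27ac chromatin immunoprecipitation sequencing of A375 cells was analysed from 1 table of the authors' own comparison. The submitters' processing notes name Trim Galore, cutadapt, FastQC, Bowtie2, Picard, MACS2, featureCounts, DESeq2 and bedtools 2.29.1 and the build hg38, without role or order. Whether regions were called on pooled libraries is not given in the sources used here. Mean level is a normalized signal, deposited with no word on its scaling. Fold change and SE are deposited log2 values, and the deposited score is their ratio. The deposited p-value and adjusted p-value are per region, and an adjusted value of 1 was read as not computed. The deposited distance in bases was read as distance to a gene start: of 39961 lines at another distance than 0, 65.0% lay within 100 bases of the distance to the RefSeq start of GRCh38.p14, and 22.1% with distance to the gene body.

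Lines repeating a region were merged. The planned edgeR or limma test could not be run, because no value per library was given, and the authors' calls were used as the design provided for. Centring subtracted the common median and took two-sided normal p-values from the authors' SE, with Benjamini-Hochberg adjustment. Of the 544 symbols, 523 matched a current RefSeq symbol, 16 an older one and 5 none. Named genes were, by rule, the 10 called domains with the largest and the 5 with the most negative fold change, the 10 widest, the 10 with the highest level, the 5 lowest fold changes, 5 on each side of the width threshold and up to 8 per gene list. IL24, GDA, VGF, FLRT2, MOCOS, DUSP5, SPRED1, the densest domains, the families and the examples of extent were named after their values were seen. The domains and lists were chosen with earlier results of these data known. Alternatives were other widths, thresholds, adjustments and centring. Centring was tested on simulated fold changes. The shifts put in were larger than any centred fold change of the broad domains, so the test does not show how smaller ones are recovered. Adjustment, motif search and GC content were checked on made inputs, and the reach around starts was not checked. Python 3.11.15, pandas 2.3.3, numpy 2.4.6 and scipy 1.17.1 were used.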

Additional observations from a re-analysis of the deposited data

How the results depend on the processing

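No paired analysis was possible because single libraries have no values in the file. So other size factors, a replicate block and leaving out each library were not run, and neither replicate spread nor depth is known. The 12 calls fell to 1 at a threshold of 0.01, to 1 where a log2 fold change of at least 1 was asked for, to 7 with adjustment over all distinct regions and to 1 after subtraction of the common median. There were 27 calls among 1820 regions of 5000 bases or more, which is 1.49% of the 1817 tested. Calls were 10 of 288 (3.47%) at 10000 bases or more and 2 of 77 (2.60%) at 15000 bases or more. These shares stand beside 2.21% of the broad domains and 1.65% of all tested regions called positive. Taking the 544 densest regions over 1 start in place of the widest gave 2 calls, with 57 regions shared. The median log2 fold change, 0.31, was -0.017 after subtraction of the common median, an alternative chosen after the data were seen, and 0.29 to 0.32 under the other 10 settings. Density ran from 27.1 to 32.3 per kb over 6 settings. Of 32 named domains, subtraction of the median ended 11 of 12 calls and turned the sign of 9 that were not called. Other alternatives were chosen after the data were seen. Calls numbered 10 where the RefSeq start had to lie inside, 12 without domains holding another coding start, 10 without chromosome 20 and 8 without chromosome 1.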
